A study of Mus musculus with 38 samples.

Results

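Primary mouse embryonic fibroblast cultures can carry macrophages from the embryo, and their transcripts are then counted with those of the fibroblasts. The genes described here are 36 genes that mark resident macrophages, chosen by symbol and matched through Ensembl identifiers to rows of both count tables. All 36 were found among 45706 gene identifiers. In the deposited design, fibroblasts of C57BL/6 embryos were either wild type (WT) or homozygous for RelA-TA-KI, a knock-in that alters the transactivation domains of RelA, the main activating subunit of NF-kB. Cells were starved overnight in 0.5% bovine calf serum before they received TNF at 10 ng/ml, bacterial lipopolysaccharide (LPS) at 100 ng/ml or the double-stranded RNA analog Poly(I:C) at 20 ug/ml. RNA was taken from untreated cells and after 0.5, 1, 3 and 8 h. The study asked how RelA target genes respond to inflammatory signals.

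All groups shared the strain, the serum starvation and the polyA+ library kit. The TNF table held 20 libraries, 2 numbered replicates of each of 10 groups (2 genotypes, untreated and 4 times). The second table, called the TLR-ligand table here because both agents act on Toll-like receptors, held 18 libraries with LPS or Poly(I:C), 1 for each genotype in each of 9 conditions. The labels do not say whether replicates were separate embryos, cultures or wells, so the p-values measure the spread between these libraries. In RelA-TA-KI that spread may be technical. The WT replicates of the TNF table differed in Xist (337 to 426 CPM in replicate 1, 2.32 to 3.9 CPM in replicate 2), so they were not the same source cells. The labels also do not tell genotype apart from the cell preparation each genotype came from.

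Macrophages settle in embryonic tissues early and keep themselves there under colony stimulating factor 1 (CSF1), which they sense through the receptor encoded by Csf1r. The transcription factor PU.1, encoded by Spi1, maintains their identity. They take up debris and opsonized particles through Fc and scavenger receptors, signal through adaptors with ITAM motifs such as FcRgamma (Fcer1g) and DAP12 (Tyrobp), make the complement protein C1q, and kill microbes with lysosomal enzymes and the phagocyte NADPH oxidase. LPS is sensed through TLR4 and Poly(I:C) through TLR3 and cytosolic sensors, and both lead to NF-kB activity and to type I interferon.

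RefSeq promoters (GRCm38.p6) were found for 25 of the 36 genes. The 250 bases before the start are shown for Cybb, a gene with a large rise after both TLR ligands, and for 2 genes that fell with LPS, Trem2 and Cd84. Capitals mark matches, on either strand, to the motifs searched: a PU.1 motif (GAGGAAGT), an ISRE-like motif (GAAA, any 2 bases, GAAA), and the NF-kB consensus.
Cybb: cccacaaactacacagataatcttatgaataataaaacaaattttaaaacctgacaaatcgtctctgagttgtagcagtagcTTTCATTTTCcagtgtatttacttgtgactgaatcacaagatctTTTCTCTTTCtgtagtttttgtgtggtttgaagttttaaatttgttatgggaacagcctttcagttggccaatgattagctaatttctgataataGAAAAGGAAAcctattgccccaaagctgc
Trem2: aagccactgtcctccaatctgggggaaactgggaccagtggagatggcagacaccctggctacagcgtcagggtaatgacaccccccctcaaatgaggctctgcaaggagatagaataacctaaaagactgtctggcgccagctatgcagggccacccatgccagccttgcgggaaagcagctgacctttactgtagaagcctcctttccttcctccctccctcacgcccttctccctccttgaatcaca
Cd84: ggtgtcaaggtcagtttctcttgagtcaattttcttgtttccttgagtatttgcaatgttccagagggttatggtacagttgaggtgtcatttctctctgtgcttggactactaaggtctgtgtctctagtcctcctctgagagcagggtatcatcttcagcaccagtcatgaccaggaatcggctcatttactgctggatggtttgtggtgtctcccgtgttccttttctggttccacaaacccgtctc
The Cybb sequence, at chrX:9469325-9469574 on the minus strand, holds 3 ISRE-like matches, and lies within the longer Cybb gene of GENCODE. The Trem2 sequence (chr17:48346151-48346400, plus strand) and the Cd84 sequence (chr1:171839447-171839696, plus strand) hold none of the 3 motifs in this window.

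Among the 25 genes, the ISRE-like motif was in 4 (Aif1, Ctss, Cybb and Ncf1), and in 2.98% of 32851 promoters of the same length. The 25 genes have 29 promoters, and a gene was counted if any of its promoters matched, while the shares of all are per promoter. The PU.1 motif was in C1qc and Vav1 (2.44% of all), and the NF-kB consensus in C1qc and Fcgr3 (7.25% of all). The 3 sequences shown do not stand for all genes that rose or fell. Fcgr1, Fcer1g, Ptprc, Mpeg1, Lcp1, Hcls1 and Vav1, described below as rising with both TLR ligands, had no ISRE-like match in this window. A match describes the letters only.

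Total counts were 6.72M to 9.59M per library in the TNF table and 7.02M to 9.43M in the TLR-ligand table. The 36 genes took 0.166% to 0.656% of the counts in the first table and 0.627% to 0.988% in the second. Levels are given as CPM, a gene's counts relative to the library's total, after edgeR's TMM scaling within each table. The tables were scaled separately, so levels are compared within a table. As a description, the marker level of a library is the median log2 CPM of the 35 genes with enough counts to test. The scavenger receptor gene Cd163 had none in all but 1 library of each table, where it reached 0.110 and 0.113 CPM, and it was not tested.

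Lyz2, which encodes the lysozyme of macrophages and neutrophils, was the most abundant member per length. In untreated WT cells it stood at 417 RPKM, which is CPM divided by exon length in kilobases, in the TNF table and 1434 in the TLR-ligand table. Lyz2 is closely similar to its neighbor Lyz1, so reads may be shared between them. The complement genes C1qb (88.7 and 264.4 RPKM) and C1qa (80.6 and 230.4 RPKM), the lysosomal protease gene Ctss (78.0 and 173.2 RPKM) and the adaptor gene Tyrobp (71.8 and 193.0 RPKM) came next in both tables. At the low end were the sialoadhesin gene Siglec1 (1.47 and 4.85 RPKM), the calcium-binding protein gene Aif1 (1.62 and 7.15 RPKM) and the leukocyte phosphatase gene Ptprc, which encodes CD45 (1.81 and 4.32 RPKM). In the TLR-ligand table the oxidase gene Ncf4 (5.87 RPKM) was also below Aif1. The exon length used for Ptprc was 18313 bases. In untreated WT cells of the TNF table Ptprc stood at 26.1 and 40.1 CPM, where the median over the tested genes was 28.6 and 41.4 CPM. These levels are mixtures over all cells of a culture, in which fewer macrophages and less RNA per macrophage cannot be told apart.

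**Figure D1:**
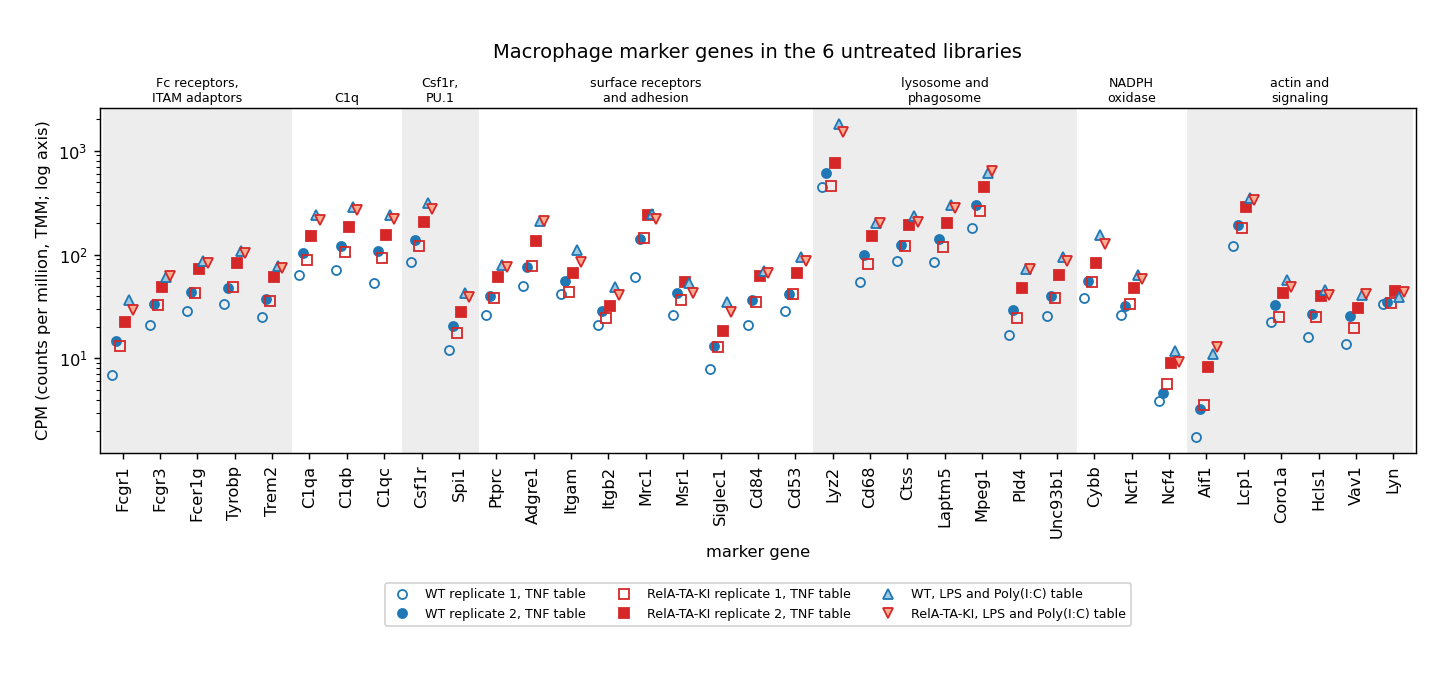
Level of each of the 35 tested marker genes (x axis, by role) in the 6 untreated libraries, in CPM on a log axis. In the TNF table, filled symbols (replicate 2) lie above open symbols (replicate 1) of the same genotype for every gene shown, and the triangles are the single libraries of the TLR-ligand table, which was scaled separately.

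Genes that mark other blood cells were scarce in the TNF table. Over the TNF libraries, the summed CPM of 10 neutrophil genes ran from 0.846 to 10.4, that of 9 mast cell genes from 2.30 to 5.25, that of 8 T cell genes from 5.00 to 30.9 and that of 6 B cell genes from 0.121 to 1.79. Elane, Cd3d, Cd2, Tpsb2 and Fcer1a, which define neutrophils, T cells and mast cells, were at 0 in all of them. In the TLR-ligand table the defining genes S100a9, Mpo, Ngp, Cd3e, Cd3g, Cd3d, Cd2, Tpsb2, Tpsab1 and Fcer1a were at 0 in all 18 libraries. The summed CPM of the lists nevertheless reached 35.3 (neutrophil), 62.9 (mast cell), 25.3 (T cell) and 26.3 (B cell) at 8 h of LPS. At 8 h of Poly(I:C) the T cell list reached 35.1 CPM in RelA-TA-KI. The genes at 0 were picked out after their values were seen, and they differ between the 2 tables. Elane was not at 0 in all TLR-ligand libraries, and S100a9, Mpo and Ngp were not at 0 in all TNF libraries. Fibroblast identity was plain, with 12 fibroblast genes such as Col1a1 summing to 24470 to 42190 CPM and to 42110 to 77960 CPM in the 2 tables.

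Genes that tell the sexes apart differed between the sources of the libraries. In the TNF table the 5 WT libraries of replicate 2 had 2.32 to 3.9 CPM of Xist, the RNA of the inactive X chromosome, and 271 to 306 CPM summed over 4 Y-linked genes. All other TNF libraries had 337 to 517 CPM of Xist and at most 1.02 CPM of the Y-linked genes. In the TLR-ligand table the 9 RelA-TA-KI libraries had 0.464 to 1.49 CPM of Xist and 254 to 303 CPM of the Y-linked genes, and the 9 WT libraries had both (251 to 438 CPM and 109 to 147 CPM). Genotype and the sex of the source cells cannot be told apart in the TLR-ligand table, and in the TNF table they differ together for replicate 2. The part of sex in the genotype differences given below was not tested.

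In the TNF table the marker level followed the replicate number. Replicate 2 was above replicate 1 for 35 of 35 genes in each of the 10 groups, by 0.35 to 0.84 on the log2 scale of the marker level. In untreated cells the marker level was 4.85 and 5.38 in WT and 5.28 and 6.00 in RelA-TA-KI, so the genotypes overlapped. The summed fibroblast genes were in the same order in WT (27220 and 36950 CPM) and in RelA-TA-KI (38440 and 42190 CPM), while 10 muscle genes ran the other way (160.9 and 102.9 CPM in WT, 201.3 and 95.5 CPM in RelA-TA-KI); the part of these cells in the difference was not tested.

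Untreated RelA-TA-KI cultures had higher fitted levels for 35 of 35 genes, with a median log2 fold change of 0.57 (0.18 for the integrin gene Itgam to 1.22 for Aif1), against 0.00 over all genes. None passed the test in edgeR's quasi-likelihood fit (0 of 35 at an unadjusted p below 0.05, and 0 in DESeq2), where 0.00722% of all genes were called. With the replicate number as a block across genotypes 27 were called higher (6.92% of all genes called), and with no filter on low counts 26 (2.83%). Same-numbered libraries of the genotypes deviated together at each of the 5 times (r of 0.164 to 0.338), but the labels do not say that a number marks a shared source. For Adgre1, which encodes the macrophage surface protein F4/80, the values were 49.5 and 75.2 CPM in WT and 77.9 and 136.3 CPM in RelA-TA-KI. Those of the mannose receptor gene Mrc1 were 60.8 and 140.3 CPM in WT and 143.1 and 243.0 CPM in RelA-TA-KI. For both genes the lower RelA-TA-KI library was only slightly above the higher WT library.

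Averaged over the 5 times, 6 of the 35 genes were called higher in RelA-TA-KI, where 4.56% of all genes were called higher. They were the tetraspanin gene Cd53 (log2 fold change 0.71, SE 0.17, edgeR adjusted p = 0.0167), Ctss (0.60, SE 0.14, adjusted p = 0.0173), the lipid-sensing receptor gene Trem2 (0.61, SE 0.16, adjusted p = 0.0253), Tyrobp (0.59, SE 0.16, adjusted p = 0.033), the adhesion receptor gene Cd84 (0.67, SE 0.19, adjusted p = 0.0399) and Fcer1g (0.60, SE 0.18, adjusted p = 0.047). All but Fcer1g (adjusted p = 0.0505) were also called with library sizes alone in place of TMM. DESeq2 called 13, edgeR with no filter on low counts 34 (9.06% of all genes called) and with the block across genotypes 35 (23.5%). The share of all genes called is not given for DESeq2 or for the counts with libraries left out. Whether those counts moved with the calls over all genes was not tested. The 5 libraries of a replicate number may share a culture, and the count fell to 0 without the RelA-TA-KI libraries of replicate 2 or the WT libraries of replicate 1, and rose to 26 without the RelA-TA-KI libraries of replicate 1 or the WT libraries of replicate 2, the ones with Y-linked transcripts.

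In the TLR-ligand table the genes called for genotype differed in the other direction. Over 9 conditions, 6 of 35 genes were called lower in RelA-TA-KI and 0 higher, where 8.33% of all genes were called lower, and the median over the 35 genes was -0.09. The 9 libraries of a genotype may share a culture, so the SEs and p-values may not measure the spread between cultures. Csf1r differed by -0.50 (SE 0.05, edgeR adjusted p = 8.17e-05) and Lyz2 by -0.36 (SE 0.05, adjusted p = 0.000563). The oxidase genes Ncf4 (-0.56, SE 0.13, adjusted p = 0.0124) and Cybb (-0.45, SE 0.11, adjusted p = 0.0172), Adgre1 (-0.33, SE 0.09, adjusted p = 0.0231) and Itgam (-0.28, SE 0.08, adjusted p = 0.0317) completed the 6, which library sizes alone called too. These genes had fitted differences of 0.23 to 0.66 over the TNF times. The direction was not the same in every condition. The marker level was lower in RelA-TA-KI in 6 of the 9 conditions, among them untreated cells (6.37 against 6.43 in WT), and higher in 3. It was 7.75 against 7.52 at 8 h of LPS, 6.79 against 6.76 at 3 h of Poly(I:C) and 7.96 against 7.13 at 8 h of Poly(I:C).

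**Figure D2:**
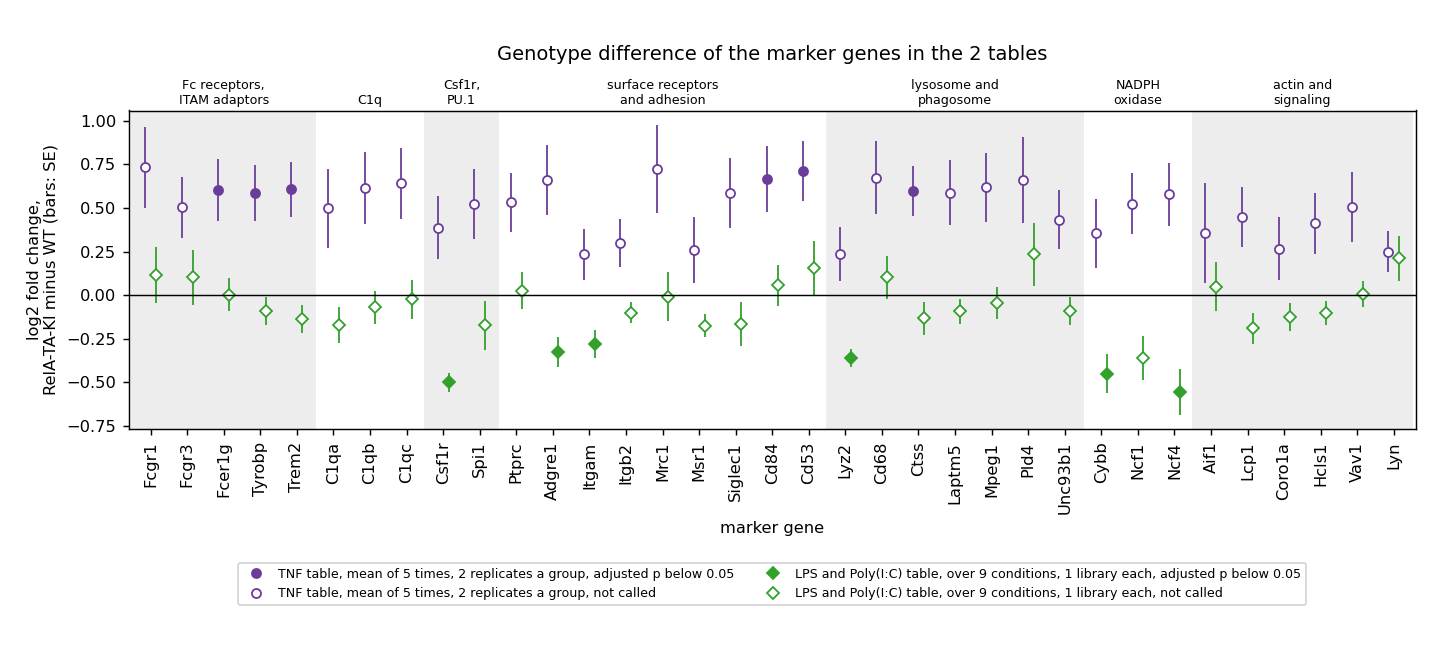
Fitted log2 fold change of RelA-TA-KI against WT for each of the 35 genes (x axis), with standard errors as bars, in the TNF table (circles, mean of 5 times) and in the TLR-ligand table (diamonds, over 9 conditions). Filled symbols passed the test: the 6 filled circles are above 0 and the 6 filled diamonds below it.

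With TNF, the marker level first fell and then rose in all 4 series of libraries. At 0.5 h it was 4.67 and 5.07 in WT and 4.98 and 5.54 in RelA-TA-KI, each below its untreated value. At 8 h it was 5.08 and 5.74 in WT and 5.73 and 6.56 in RelA-TA-KI, each above its untreated value. The change from untreated to 8 h, 0.29 in WT and 0.50 in RelA-TA-KI on the log2 scale as means of 2 series, is a description with no test.

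**Figure D3:**
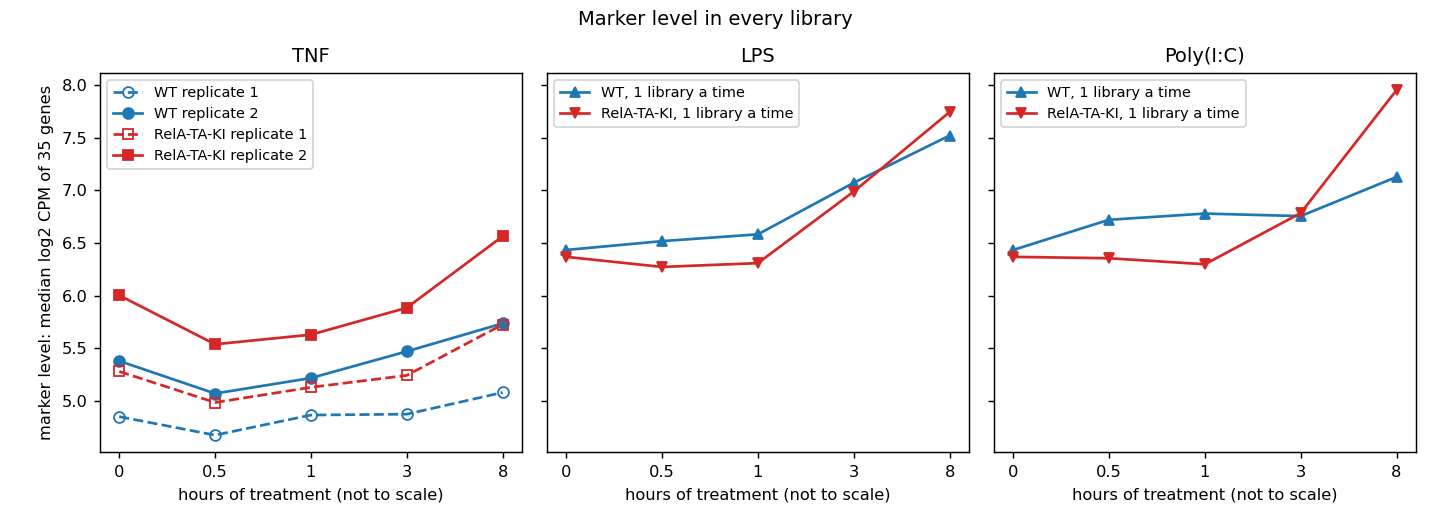
Marker level (median log2 CPM of 35 genes) against hours of treatment, not to scale, with 1 line per series of libraries. The 4 TNF series keep their order at every time, dip at 0.5 h and end above their start; the LPS and Poly(I:C) series, scaled separately, climb to between 7.13 and 7.96 at 8 h.

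Cybb, which encodes the gp91phox subunit of the NADPH oxidase, and Msr1, which encodes scavenger receptor A, had the largest changes of the 35 genes at 8 h of TNF. Cybb went from 37.9 and 55.1 CPM in untreated WT cells to 61.1 and 105.2 CPM at 3 h and 126.5 and 208.2 CPM at 8 h. In RelA-TA-KI cells it went from 54.2 and 82.2 CPM to 72.4 and 131.9 CPM and then to 186.0 and 403.7 CPM. Msr1 went from 26.4 and 42.6 CPM to 89.5 and 154.3 CPM at 8 h in WT, and from 36.7 and 54.3 CPM to 123.5 and 219.5 CPM in RelA-TA-KI. For both genes the 8 h libraries of a genotype lay above all its untreated ones.

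In WT cells these were the 2 genes called higher at 8 h, where 12.0% of all genes were called higher: Cybb by 1.84 (SE 0.45, edgeR adjusted p = 0.00912) and Msr1 by 1.80 (SE 0.42, adjusted p = 0.00658). Neither was called without WT replicate 2 at 8 h or without untreated WT replicate 1. In RelA-TA-KI cells 7 genes were called higher, where 21.6% of all genes were: Cybb by 2.11 (SE 0.44, adjusted p = 0.00153), Msr1 by 1.91 (SE 0.41, adjusted p = 0.00186), Ncf4, which encodes p40phox, by 1.32, the cortactin-like gene Hcls1 by 1.18, the integrin beta 2 gene Itgb2 by 1.17, Lyz2 by 1.07, and the Src-family kinase gene Lyn by 0.73. Lyn was not called with library sizes alone (adjusted p = 0.0764), where the median of all genes stood at -0.16 instead of -0.02. The number called was 2 without RelA-TA-KI replicate 2 at 8 h or without untreated RelA-TA-KI replicate 1. In either direction 20.8% of all genes were called in WT and 42.1% in RelA-TA-KI. With no filter on low counts 16 members were called in WT (12.1% of all genes) and 27 in RelA-TA-KI (22.3%).

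At 1 h and 3 h none of the 35 genes was called in either genotype by edgeR with the filter on low counts or by DESeq2. At an unadjusted p below 0.05 there were 0 in WT at both times, 0 in RelA-TA-KI at 1 h and 1 at 3 h. Over all genes edgeR called 3.81% in WT and 3.28% in RelA-TA-KI at 1 h, and 15.7% and 19.0% at 3 h. With no filter on low counts edgeR called 2 members in WT (3.34% of all genes) and 12 in RelA-TA-KI (4.76%) at 1 h, and 8 (9.40%) and 13 (12.1%) at 3 h. In RelA-TA-KI at 1 h the fitted change was nevertheless below 0 for 35 of 35 genes (median -0.28), and in WT for 27 of 35 (median -0.13).

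Libraries with the same replicate number deviated together within a genotype, so the TNF responses were also fitted with the replicate number as a block within each genotype. With this block 18 genes changed in WT at 8 h (13 higher and 5 lower, where 32.8% of all genes changed) and 29 in RelA-TA-KI (27 higher and 2 lower, where 53.3% of all genes changed). Higher in WT were, after Cybb and Msr1, Ncf4 (1.15), Hcls1 (1.06), Csf1r and Spi1 (0.75 each), the actin bundling gene Lcp1 (0.63), Lyz2 (0.58), Itgb2 (0.51), the TLR chaperone gene Unc93b1 and Lyn (0.37 each), Ncf1 (0.35) and the coronin gene Coro1a (0.29). Lower in WT were Mrc1 (-0.79), Trem2 (-0.67), the endosomal nuclease gene Pld4 (-0.62), Cd84 (-0.49) and the lysosomal membrane gene Laptm5 (-0.27). In RelA-TA-KI Mrc1 (-0.65) and Trem2 (-0.30) were lower.

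Earlier, the block gave 0 higher and 2 lower in WT at 1 h (Itgam and Laptm5, where 10.1% of all genes changed) and 0 higher and 19 lower in RelA-TA-KI (where 7.30% of all genes were lower). Aif1 had the largest fall of the 19, by 1.16, and Mrc1 the next, by 0.79. Mrc1 stood at 143.1 and 243.0 CPM untreated and at 87.2 and 134.4 CPM at 1 h in RelA-TA-KI. At 3 h 6 genes were higher and 5 lower in WT (27.8% of all genes changed), and 3 were higher and 14 lower in RelA-TA-KI (35.3% of all genes changed). Cybb, Spi1 and Ncf1 were the 3 higher in RelA-TA-KI and were also among the 6 in WT.

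The difference between the genotypes' responses was tested directly. In edgeR's fit without the block no gene was called at 3 h (0 at an unadjusted p below 0.05, 0 in DESeq2, 0.932% of all genes called) or at 8 h (0, 0 and 6.87% likewise), although at 8 h the fitted difference was above 0 for 31 of 35 genes, with a median of 0.31. With no filter on low counts 2 genes were called at 3 h (2.66% of all genes) and 11 at 8 h (6.76%). With the block within genotype, 14 genes had a larger 8 h response in RelA-TA-KI, where 11.4% of all genes did, and 0 a smaller one. Cd53 differed by 0.72 (edgeR adjusted p = 0.00124), going from 41.6 and 66.9 to 52.5 and 98.1 CPM in RelA-TA-KI and from 28.6 and 41.4 to 22.8 and 35.8 CPM in WT. All 3 C1q chain genes were among the 14 (C1qa 0.64, C1qc 0.57 and C1qb 0.56), with Itgb2 and the lysosomal glycoprotein gene Cd68 (0.65 each), the guanine exchange factor gene Vav1 (0.56), Ctss (0.50), Lyz2 (0.47), Ncf1 (0.46), Laptm5 (0.44), Adgre1 (0.43), the pore-forming protein gene Mpeg1 (0.42) and Fcer1g (0.39). At 3 h Aif1 (-1.59) and Mrc1 (-0.65) had the smaller response in RelA-TA-KI, where 3.79% of all genes did; Aif1 rests on 1.13 to 8.35 CPM.

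With LPS and Poly(I:C) the changes were larger. The TMM factors fell with these treatments, and with library sizes alone the median log2 fold change of all genes was -0.49 at 3 h and -0.76 at 8 h of LPS, and -0.25 and -0.53 at 3 h and 8 h of Poly(I:C), instead of values near 0. Genes are therefore said to have risen or fallen here where both scalings called them in the same direction. Each change is the mean over both genotypes, 1 library each, tested against how the genotypes' responses differed.

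At 8 h of LPS 18 of 35 genes rose and 6 fell under both scalings, where 46.5% of all genes changed; with TMM alone 23 were higher and 6 lower, where 62.7% of all genes were called, and with library sizes alone 18 and 9, where 77.4% were. At 8 h of Poly(I:C) 18 rose and 1 fell under both, where 37.9% changed; with TMM alone 22 were higher and 1 lower, where 49.8% were called, and with library sizes alone 18 and 8, where 66.8% were. The median TMM change of the 35 genes was 1.15 with LPS and 1.06 with Poly(I:C), against -0.06 and -0.04 over all genes. The direction of 6 genes with LPS and of 5 with Poly(I:C) depended on the scaling. Both treatments share the untreated libraries, so their changes are not independent.

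Of the Fc receptors and ITAM adaptors, Fcgr1 and Fcer1g rose with both treatments and Trem2 fell with both. Fcgr1 (chr3:96282909-96293969, minus strand) encodes the high-affinity IgG receptor CD64. It was at 36.2 CPM in untreated WT cells, at 83.4 and 212.2 CPM after 3 h and 8 h of LPS and at 115 and 279.2 CPM after 3 h and 8 h of Poly(I:C). In RelA-TA-KI cells it was at 29.0 CPM untreated, 109.6 and 452.1 CPM with LPS and 125 and 477.4 CPM with Poly(I:C). At 0.5 h and 1 h it had stayed between 24.2 and 37.9 CPM. The fitted 8 h changes were 3.32 with LPS (SE 0.35, edgeR adjusted p = 8.62e-06) and 3.51 with Poly(I:C) (SE 0.36, adjusted p = 1.09e-05), the largest of the 35 genes in each, under TMM and under library sizes alone (2.63 and 3.00).

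Trem2 (chr17:48346401-48354147, plus strand), a receptor for lipids and apoptotic cells that signals through DAP12, went from 78.2 CPM in WT to 22.6 CPM with LPS and 40.0 CPM with Poly(I:C) at 8 h. In RelA-TA-KI it went from 74.6 CPM to 30.3 and 46.1 CPM. Its fitted changes were -1.52 (SE 0.18, edgeR adjusted p = 1.73e-05) and -0.82 (SE 0.17, adjusted p = 0.00194). Its partner Tyrobp was not called with TMM (-0.28 with LPS and 0.30 with Poly(I:C)), at 108.9 CPM in untreated WT cells and 80.8 and 113.7 CPM at 8 h. The low-affinity receptor gene Fcgr3, which is similar in sequence to other Fc receptor genes, was not called either.

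Of the 3 C1q chain genes, C1qa and C1qb rose with Poly(I:C). C1qa rose by 1.15 (SE 0.22, edgeR adjusted p = 0.00118) and C1qb by 1.06 (SE 0.20, adjusted p = 0.00124), and C1qc was higher by 0.91 with TMM only (adjusted p = 0.00712; 0.0915 with library sizes alone). C1qa went from 239.6 to 439.9 CPM in WT and from 214.5 to 560.8 CPM in RelA-TA-KI. With LPS none of the 3 was called under both scalings, and C1qa was at 228.2 CPM in WT and 322.5 CPM in RelA-TA-KI at 8 h.

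Csf1r and Spi1 moved apart. Spi1 rose with LPS (1.85, SE 0.30, edgeR adjusted p = 0.000218) and with Poly(I:C) (1.92, SE 0.30, adjusted p = 0.000312), from 42.2 to 123.8 and 109.2 CPM in WT and from 38.8 to 164.4 and 191.8 CPM in RelA-TA-KI. Csf1r fell with LPS by 0.99 (SE 0.12, adjusted p = 1.78e-05), from 314.5 to 183.6 CPM in WT and from 277.2 to 120.8 CPM in RelA-TA-KI. Csf1r with Poly(I:C) was at 450.9 and 282.1 CPM and was not called (0.27, adjusted p = 0.0703, and -0.21 with library sizes alone). With TNF, Csf1r was one of the genes called higher at 8 h with the block in both genotypes, going from 85.7 and 138.6 to 148.7 and 228.9 CPM in WT and from 120.9 and 206.4 to 182.6 and 311.8 CPM in RelA-TA-KI.

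Of the 9 tested surface receptors and adhesion genes, Ptprc, Msr1 and Siglec1 rose with both treatments, and Adgre1 and Itgam rose with LPS under both scalings. Msr1 went from 53.4 to 353.7 CPM with LPS and 135.0 CPM with Poly(I:C) in WT, and from 43.1 to 367.4 and 133.5 CPM in RelA-TA-KI. The LPS libraries were the higher ones in both genotypes. Siglec1 went from 34.7 to 86.4 and 114.8 CPM in WT and from 28.2 to 121.3 and 155.0 CPM in RelA-TA-KI, with the Poly(I:C) libraries the higher ones. Adgre1 was at 211.4 CPM untreated and 873.3 CPM after LPS in WT, and at 210.6 and 607.8 CPM in RelA-TA-KI.

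Mrc1 and Cd84 fell with LPS. Cd84 (chr1:171839697-171890718, plus strand), a homotypic adhesion receptor of the SLAM family, went from 70.1 to 13.5 CPM in WT and from 66.0 to 26.9 CPM in RelA-TA-KI, a fitted change of -1.75 (SE 0.27, edgeR adjusted p = 0.000148). Mrc1 went from 247.5 to 69.8 CPM and from 219.1 to 117.3 CPM (-1.32, SE 0.30, adjusted p = 0.00224). With Poly(I:C) Cd84 was at 38.5 and 55.3 CPM (-0.54, adjusted p = 0.0926) and Mrc1 at 108.3 and 173.4 CPM (-0.73, adjusted p = 0.0566), and library sizes alone called both lower (-1.05 and -1.24). The integrin beta 2 gene Itgb2 was called higher with LPS under TMM (0.49) but was below 0 with library sizes alone (-0.21).

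Among 7 lysosome and phagosome genes, Mpeg1 and Unc93b1 rose with both treatments, Ctss rose with Poly(I:C), and Lyz2 and Laptm5 fell with LPS. Mpeg1 went from 605.5 to 1337 and 1018 CPM in WT and from 631.3 to 1475 and 1548 CPM in RelA-TA-KI. Lyz2 went from 1816 to 1366 CPM with LPS in WT and from 1500 to 1141 CPM in RelA-TA-KI (-0.40, SE 0.11, edgeR adjusted p = 0.00692). With TNF the direction for Lyz2 was up, from 444.0 and 611.9 to 632.2 and 951.9 CPM in WT and from 454.6 and 765.7 to 881.6 and 1682 CPM in RelA-TA-KI at 8 h.

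The 3 NADPH oxidase genes rose together with LPS. Cybb rose by 2.98 (SE 0.25, edgeR adjusted p = 1.45e-06), from 154.4 CPM untreated to 173.8, 257.0, 700.6 and 1359 CPM at 0.5, 1, 3 and 8 h in WT, and from 127.5 to 120.3, 152.4, 465.9 and 908 CPM in RelA-TA-KI. Its rise with Poly(I:C) was 2.79 (SE 0.25, adjusted p = 3.99e-06), to 785.4 CPM in WT and 1092 CPM in RelA-TA-KI at 8 h. Ncf1, which encodes p47phox, rose by 1.60 and 1.37, and Ncf4 by 1.82 with LPS. Ncf4 with Poly(I:C) was called with TMM only (0.94, adjusted p = 0.0123; 0.152 with library sizes alone). With TNF included, Cybb at 8 h lay above its untreated library in all 8 series.

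Of 6 genes for actin organization and signaling, Lyn, Hcls1, Lcp1, Aif1 and Vav1 rose with both treatments. Lyn (chr4:3678115-3813122, plus strand), a kinase that acts downstream of ITAM and inhibitory receptors, rose by 2.85 with LPS (SE 0.29, edgeR adjusted p = 5.91e-06) and 2.50 with Poly(I:C) (SE 0.29, adjusted p = 3.02e-05). It went from 39.0 to 253.0 and 139.7 CPM in WT and from 43.4 to 343.2 and 338.2 CPM in RelA-TA-KI. Lyn is also expressed outside macrophages. Vav1 was lower at 3 h of LPS (-0.72) and higher at 8 h (1.16), going from 41.2 to 25.2 and 83.8 CPM in WT and from 41.3 to 24.9 and 100.8 CPM in RelA-TA-KI.

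**Figure D4:**
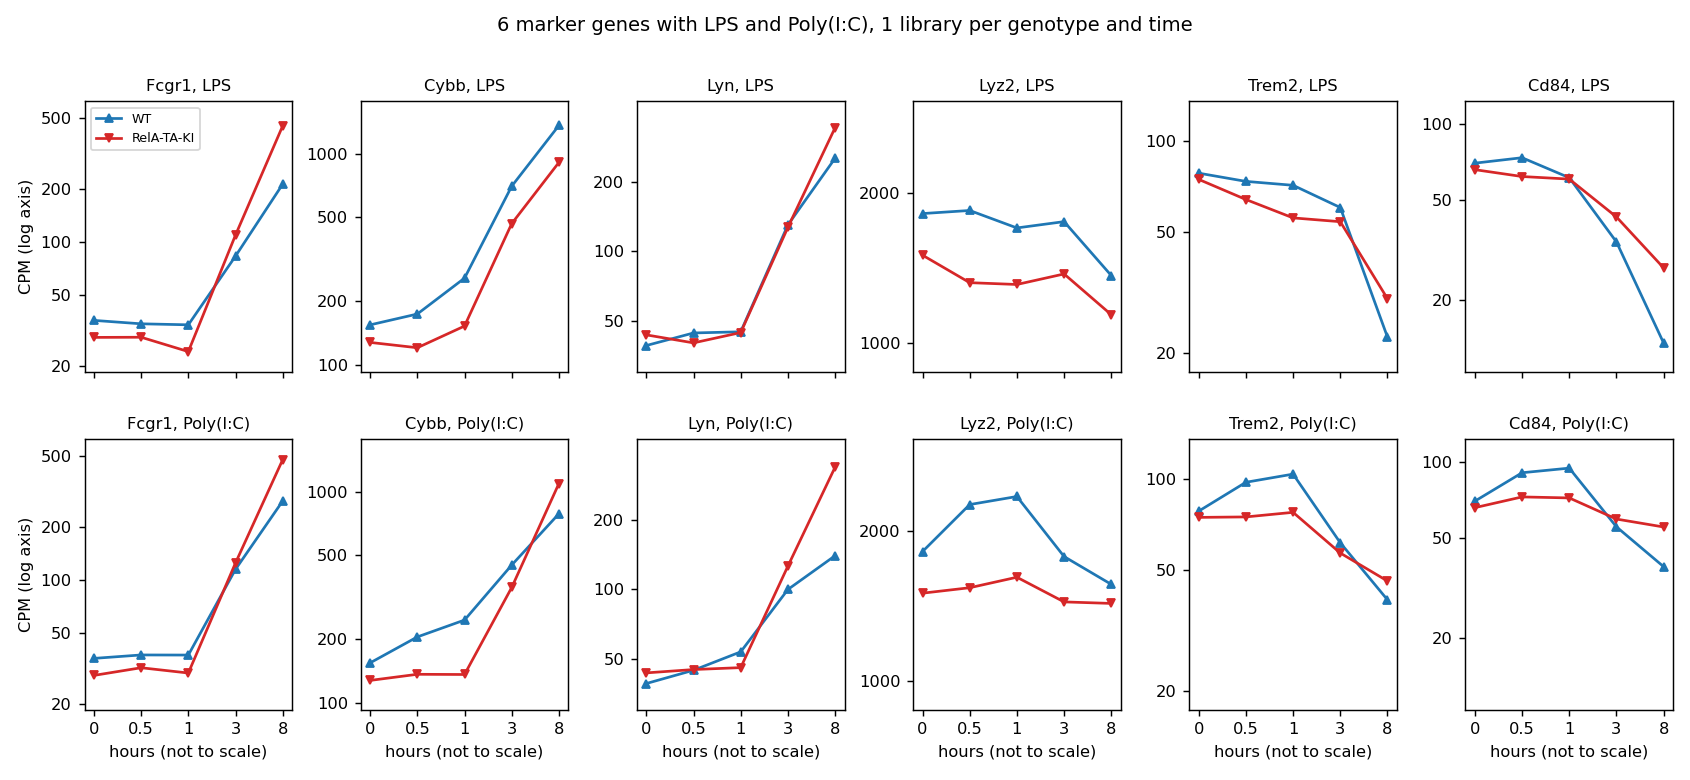
CPM (log axis) against hours of LPS (top) and Poly(I:C) (bottom), not to scale, for 6 genes, with 1 library per genotype and time. Fcgr1, Cybb and Lyn turn up after 1 h in both genotypes, with Cybb of WT given LPS already at 257.0 CPM at 1 h, and Trem2 and Cd84 are below their untreated value at 3 h and 8 h.

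The 3 h response held part of this pattern. With LPS 9 genes rose (Fcgr1, Fcer1g, Spi1, Ptprc, Msr1, Cybb, Lcp1, Hcls1 and Lyn) and Csf1r, Cd84 and Vav1 fell under both scalings, where 33.8% of all genes changed; with TMM alone 11 were higher and 3 lower, where 44.7% were called, and with library sizes alone 9 were higher and 11 lower, where 64.5% were, and 12 genes had a direction that depended on the scaling. With Poly(I:C) 6 genes rose under both scalings and under TMM alone, and 0 fell, where 15.3% and 18.5% of all genes changed: Fcgr1, Ptprc, Msr1, Cybb, Hcls1 and Lyn. Library sizes alone called 6 higher and 3 lower there, where 26.0% of all genes were called. At 1 h of LPS edgeR called 0 of 35 (1 at an unadjusted p below 0.05, 1 in DESeq2, 0.952% of all genes). At 1 h of Poly(I:C) it called 0 of 35 (2 at an unadjusted p below 0.05, 1 in DESeq2), where 0% of all genes were called.

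Genes that lagged or led the others were compared through their departure, the change of a gene in a series minus the median change of the 35 genes in that series, which does not depend on the scaling. At 8 h Mrc1, Trem2, Cd84, Laptm5, Fcgr3, Pld4, Cd68 and C1qc were below the median in all 8 series. Mean departures of Trem2 were -2.63 with LPS, -1.86 with Poly(I:C) and -0.78 with TNF, and those of Cd84 were -2.92, -1.59 and -0.64. Cybb (1.89, 1.69 and 1.62), Msr1 (1.81, 0.45 and 1.53), Hcls1 (1.14, 0.74 and 0.80), Spi1 (0.72, 0.80 and 0.54) and Lyn (1.74, 1.36 and 0.20) were above it in all 8. Fcgr1 was above the median in all 4 LPS and Poly(I:C) series (2.15 and 2.45) but not in all 4 TNF series (0.12), while Csf1r (-2.08 and -0.76 against 0.37), Lyz2 (-1.50 and -1.17 against 0.50) and Itgb2 (-0.61 and -0.92 against 0.50) were below it in those 4 and above it with TNF.

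**Figure D5:**
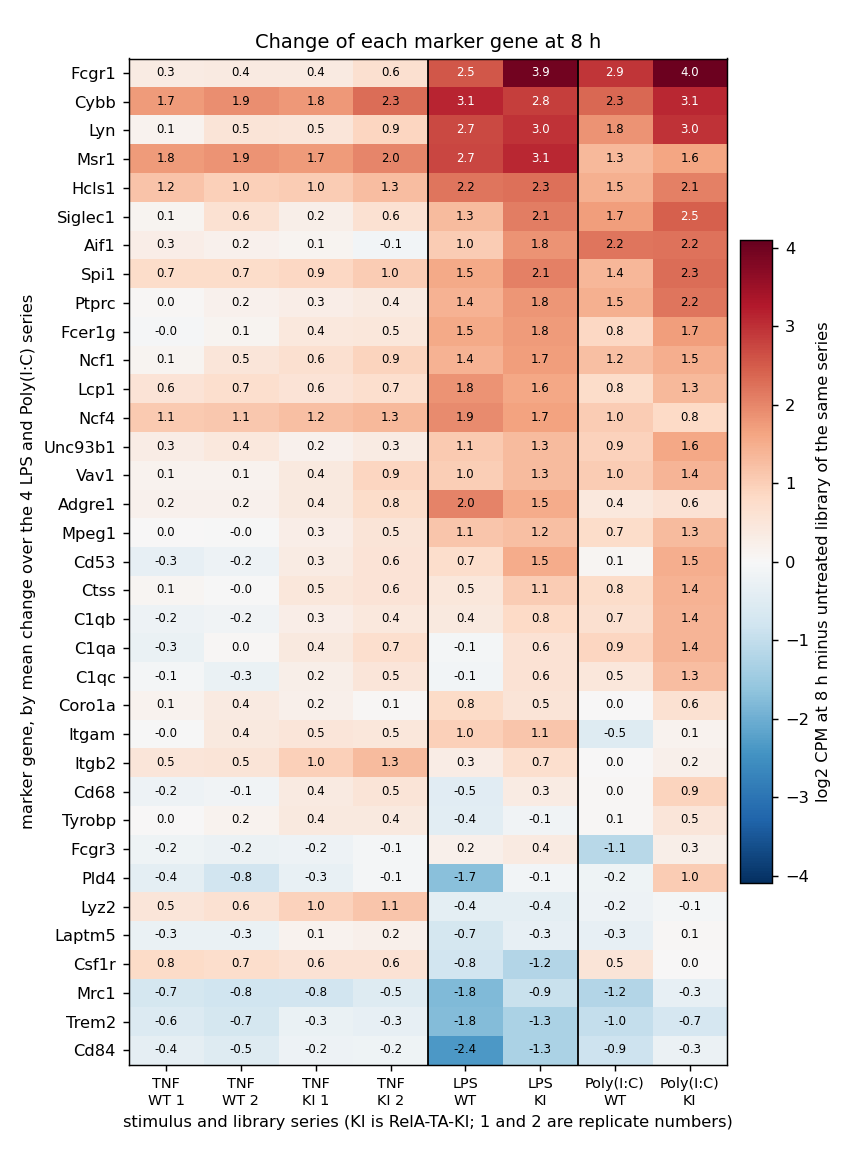
Change of each of the 35 genes from the untreated library to 8 h in the 8 series of libraries, as a difference of log2 CPM after TMM scaling (color and printed value), ordered by the mean over LPS and Poly(I:C). Fcgr1, Cybb, Lyn and Msr1 are at the top, and Csf1r, Mrc1, Trem2 and Cd84 at the bottom.

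Over the 20 TNF libraries each of the 35 genes followed the median level of the others, with Pearson's r of 0.72 (Trem2) to 0.98 (Adgre1). Over the 18 LPS and Poly(I:C) libraries r ran from -0.71 (Trem2) and -0.67 (Cd84) to 0.97 (Fcer1g and Spi1). Libraries of a table share their preparations and scaling, and these values are descriptions. The genes outside the list whose pattern was most like the marker level in both tables, by the lower of the 2 values of r over 20 and 18 libraries and with a mean count of at least 20, were BC005537 (0.96), Ms4a6d (0.95), Pirb and Ms4a6c (0.94 each), Tmem106a (0.93), Efhd2, Psd4, Cd52 and Nckap1l (0.92 each) and Casp1 (0.91). Ms4a6d, Ms4a6c and Cd52 are on the list of other macrophage genes used below. Pirb belongs to a family of near-identical genes.

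Of 34 other macrophage genes, 31 were tested. Under both scalings 9 were higher and 6 lower at 8 h of LPS, which is 48.4% of the 31 against 46.5% of all genes. At 8 h of Poly(I:C) 11 were higher and 4 lower, against 37.9% of all genes. With TMM alone these counts were 18 and 6, and 14 and 4. At 8 h of TNF 3 were higher and 1 lower in WT, where 20.8% of all genes were called, and 4 and 2 in RelA-TA-KI, where 42.1% were. The median TMM changes were 0.78, 0.55, 0.09 and 0.52 in the same order. The fractalkine receptor gene Cx3cr1 was lower with LPS by 5.00 log2 units (SE 0.72, edgeR adjusted p = 8.62e-05), the platelet and leukocyte C kinase substrate gene Plek was higher by 1.81 (SE 0.23, adjusted p = 3.8e-05), and the signaling adaptor gene Pik3ap1 was higher by 2.62 (SE 0.28, adjusted p = 9.37e-06). In the mean over the 5 times of TNF, 6 of the 31 were higher in RelA-TA-KI and 0 lower, with a median of 0.47, where 4.56% of all genes were higher.

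The CSF1 ligand is made by fibroblasts among other cells. Csf1 was higher at 8 h of TNF in WT (2.55, SE 0.17, edgeR adjusted p = 9.28e-08) and in RelA-TA-KI (2.24, SE 0.16, adjusted p = 2.08e-07), at 8 h of LPS (3.60, SE 0.45, adjusted p = 3.18e-05) and at 8 h of Poly(I:C) (2.90, SE 0.44, adjusted p = 0.000251). Averaged over the 5 times of the TNF table it was lower in RelA-TA-KI by 1.13 log2 units (SE 0.07, edgeR adjusted p = 1.5e-07). A link between the level of Csf1 and that of the macrophage genes was not tested. Of the 8 genes of CSF ligands and receptors, 6 were higher under both scalings at 8 h of LPS (7 with TMM alone) and 5 at 8 h of Poly(I:C), where 46.5% and 37.9% of all genes changed. At 8 h of TNF 3 of 7 tested were higher in WT and 5 in RelA-TA-KI, where 12.0% and 21.6% of all genes were higher, with 0 lower in each.

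Of the 12 genes of inflammatory myeloid activation, 12 were higher under both scalings at 8 h of LPS (median TMM change 7.19) and 9 at 8 h of Poly(I:C) (median 5.12). All 10 interferon-stimulated genes were higher with both treatments and under both scalings, by TMM medians of 5.80 and 5.64, and at 8 h of TNF 10 were higher in WT (median 2.89) and 6 in RelA-TA-KI (median 1.19), against the shares of all genes just given. Of the 8 genes of stimulus receptors and adaptors, Tlr3 was higher by 5.60 with LPS and 5.11 with Poly(I:C), and Cd14, the LPS co-receptor, by 3.82 and 1.39. These genes are also expressed by fibroblasts. After TMM scaling, summed CPM of other cells' genes were also higher at 8 h of LPS than untreated. Fibroblast genes went from 43960 to 61490 CPM in WT and from 51250 to 71580 CPM in RelA-TA-KI. That rise depends on the scaling: of the 12 fibroblast genes 2 were higher and 0 lower under both scalings. Col1a1, the most abundant of them, changed by -0.41 with library sizes alone. Neutrophil genes (with Csf3r the most abundant) went from 5.75 to 35.3 CPM in WT and from 5.30 to 26.3 CPM in RelA-TA-KI. Mast cell genes (Hdc the most abundant) went from 1.53 to 58.3 and from 0.883 to 62.9 CPM. B cell genes (Pax5 the most abundant) went from 0.180 to 24.0 and from 0.687 to 26.3 CPM. Endothelial genes (Kdr the most abundant) reached 776.3 CPM at 8 h of Poly(I:C) in RelA-TA-KI against 30.2 CPM untreated, and 156.8 against 28.3 CPM in WT. Of 6 endothelial genes tested, 1 was higher and 0 lower under both scalings at 8 h of Poly(I:C). S100a9, Mpo, Ngp, Tpsb2, Tpsab1 and Fcer1a were at 0 in these libraries, while the sums of the same lists were higher. The part of the other cells' genes in the macrophage values was not tested.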

How the data were processed

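PolyA+ RNA was sequenced from 38 fibroblast libraries in 2 tables. Reads were processed by the authors with cutadapt 1.9.1, STAR, featureCounts 1.4.6 and DESeq2 on mm10, per the submitters' processing notes; the STAR and DESeq2 versions, the annotation release and the strand setting of the counting are not given in the sources used here. The deposited values are raw counts per gene, taken as whole reads without molecular identifiers. No sample columns were left unused in either table.

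Gene symbols (45143 of 45706 identifiers), coordinates and exon lengths came from GENCODE vM21 (GRCm38). Each table was fitted separately in edgeR 4.0.16 (R 4.3.3): genes passing filterByExpr with a minimum count of 10 (13843 and 13759), TMM, and the quasi-likelihood F test with Benjamini-Hochberg adjustment over all genes tested, called at an adjusted p below 0.05. The TNF table was fitted as 10 groups (10 residual degrees of freedom, biological coefficient of variation 10.2%), the other as genotype plus condition (8 and 12.8%). Log2 CPM used a prior count of 2. RPKM was CPM divided by exon length. Precision is limited by 2 libraries or 1 library a group.

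Same-numbered libraries of a genotype deviated together from their group means (r of 0.161 to 0.529 over 20 pairs of groups), so the number pairs samples within a genotype as judged from the data. Between genotypes 24 of 25 values were over 0.1 (lowest 0.00558), and 5 of 5 at the same time (0.164 to 0.338); whether the number pairs the genotypes is not settled, and values with and without that block are given. Alternatives were DESeq2 1.42.0, its size factors, no filter on low counts, the replicate block, and leaving out each library. Library sizes without TMM factors were added as an alternative after seeing the data. The code was tested on simulated data.

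The members and all gene lists were chosen with earlier results of these data known. Named were the members by role, up to 6 called genes a list by mean count, and the 10 genes most like the marker level; defining genes at 0 and the most abundant genes of other cells' lists were named after their values were seen. Promoters are RefSeq's. Another motif searched and some genes of the lists are not reported here. Figures used matplotlib 3.10.9 in Python 3.11.15.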

Additional observations from a re-analysis of the deposited data

Results flagged for a closer look

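At 8 h some genes moved one way in WT and the other way in RelA-TA-KI, with 1 library per genotype and time, and these differences were not tested. With LPS, the change in RelA-TA-KI minus that in WT, on the log2 CPM scale, was 0.66 for C1qa (-0.07 in WT and 0.59 in RelA-TA-KI), 0.72 for C1qc (-0.12 and 0.60) and 0.79 for Cd68 (-0.45 and 0.34). With Poly(I:C) it was 1.39 for Fcgr3 (-1.13 and 0.25), 0.68 for Itgam (-0.54 and 0.14), 0.40 for Laptm5 (-0.34 and 0.05) and 1.20 for Pld4 (-0.17 and 1.03). In all 7 the higher change was that of RelA-TA-KI. These values rest on TMM: with library sizes alone the change was below 0 in both genotypes for all of them but Pld4 (-0.52 in WT and 0.40 in RelA-TA-KI).

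For TNF the difference of responses was tested with the replicate block within genotype, by edgeR's quasi-likelihood test, and 2 genes were called at 3 h and 14 at 8 h, as described above; without the block the counts were 0 and 0 with the filter on low counts and 2 and 11 with no filter.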

How the results depend on the processing

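Of 93 calls of single genes, 93 kept their direction and call with DESeq2 size factors and 93 without the low-count filter, 92 in the DESeq2 test, and 80 with library sizes alone, where 10 were no longer called and 3 changed sign at 8 h of LPS: C1qb -0.076, Coro1a -0.031 and Itgb2 -0.21. Leaving out single libraries changed no sign in 456 refits, and 82 lost the call.

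The number of members called without the filter on low counts, with the replicate number as a block across genotypes and as a replicate block within genotype was 2, 2 and 2 for WT at 1 h of TNF, 8, 10 and 11 at 3 h and 16, 16 and 18 at 8 h. For RelA-TA-KI these were 12, 15 and 19 at 1 h, 13, 16 and 17 at 3 h and 27, 29 and 29 at 8 h. For the difference of responses they were 2, 1 and 2 at 3 h and 11, 11 and 14 at 8 h. For RelA-TA-KI against WT, no filter and the block across genotypes gave 26 and 27 untreated (2.83% and 6.92% of all genes) and 34 and 35 over 5 times (9.06% and 23.5%). The DESeq2 test called 13 over 5 times and 1 at 1 h of LPS and of Poly(I:C). The cause was not tested. For DESeq2, and for the block across genotypes in the TNF responses, the share of all genes called is not given. Those counts may therefore move with the calls over all genes.

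Leaving out 1 library at a time, or all libraries of a genotype's replicate for the mean over 5 times, gave 0 to 26 calls for RelA-TA-KI against WT over 5 times, 0 to 2 for WT and 2 to 9 for RelA-TA-KI at 8 h of TNF, 4 to 9 for the genotypes over 9 conditions, 0 to 1, 10 to 14 and 25 to 28 at 1, 3 and 8 h of LPS, and 0, 5 and 20 to 26 of Poly(I:C); the other TNF comparisons stayed at 0. With 1 library left at a time, it is assumed to vary like the other groups. Shares of all genes called are not given for these counts either.

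The change of the marker level at 8 h was 0.53 with library sizes alone and 0.82 from summed CPM for LPS (1.23 with TMM), and 0.36 and 0.63 for RelA-TA-KI given TNF (0.50 with TMM). Cd163 had too few counts to be tested.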
